A study of Mus musculus with 7 samples.

Results

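The 10 genes described here are those of the transforming growth factor beta (TGF-beta) system in the mouse heart: the ligands Tgfb1, Tgfb2 and Tgfb3, the receptors Tgfbr1, Tgfbr2 and Tgfbr3, the latent TGF-beta binding proteins Ltbp1, Ltbp2 and Ltbp3, and Tgfbi, which encodes an extracellular matrix protein named for its induction by TGF-beta. They were taken by name from a table of 56980 genes, and all 10 were found. The RNA came from myocardium of wild-type male C57BL/6J mice, 8 weeks old on arrival, 4 days after surgery. In the myocardial infarction (MI) group (n = 3) the left coronary artery was ligated, and in the sham group (n = 4) the same surgery was done without ligation. The study calls the MI tissue ischemic, and whether infarct, border or both were taken is not given in the sources used here.

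TGF-beta is made as a precursor whose propeptide stays bound to the mature cytokine and holds it latent. Latent TGF-beta binding proteins tether this complex to the matrix, and integrins, proteases or thrombospondin can release the active ligand. The ligand is bound by the type II receptor (Tgfbr2), which phosphorylates the type I receptor (Tgfbr1), and SMAD proteins then carry the signal to the nucleus. In the heart the pathway is known for its part in fibroblast activation and scar formation.

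Values are given as FPKM, fragments per unit of gene length and of library depth, so comparisons of levels between genes depend on the gene lengths used. The lengths estimated from the FPKM values were 3383 bases for Tgfb3, 5623 for Tgfbi and 16605 for Ltbp1. Their annotated exon lengths were 3383, 3771 and 10691. The order of genes and the shares below therefore rest on the lengths behind the FPKM. The summed FPKM was 378221 and 386335 in MI replicates 1 and 3 and 463838 to 476593 in the other mice, so comparisons between mice depend on the scaling, and the rescaled counts are given with the alternatives. The libraries held an estimated 19977724 to 23610883 fragments, from the steps between FPKM values and annotated exon lengths. MI replicate 2 stood apart from the other MI mice. Its log2 values correlated with those of the sham mice at r = 0.984 to 0.987, while sham mice correlated among themselves at 0.989 to 0.992. MI replicate 1 reached only 0.878 to 0.881 with sham, and MI replicate 3 only 0.903 to 0.906. Mitochondrially encoded genes took an estimated 26.5% to 27.4% of the library fragments in the sham mice and 28.2% in MI replicate 2. In MI replicates 1 and 3 the estimate was 13.6% and 14.9%. The label of MI replicate 2 was kept, and the results below were also computed without it.

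Fibroblast, macrophage and cardiomyocyte markers differed from sham most in MI replicates 1 and 3. The summed FPKM of 5 fibroblast markers was 65.6 to 77.2 in the sham mice and 987, 107 and 769 in MI replicates 1, 2 and 3. Col1a1 and Dcn, which are also on the pathway lists, carried most of this sum, and Pdgfra was at 2.27 to 2.58 FPKM in sham and 10.6, 3.15 and 7.04 in MI, Ddr2 at 2.35 to 2.52 against 6.49, 2.57 and 5.93, and Tcf21 at 1.54 to 2.16 against 9.26, 2.14 and 10.3. The 5 macrophage markers summed to 111 to 149 in the sham mice and to 784, 135 and 680 in the MI mice. The 6 cardiomyocyte markers, all of them well above 0 as a sample of myocardium requires, summed to 12100 to 13300 in the sham mice and to 8320, 12200 and 8720 in the MI mice. Endothelial markers gave 109 to 125 against 136, 102 and 143, smooth muscle markers 43.9 to 48.0 against 42.4, 42.3 and 45.2, and platelet markers 9.47 to 11.1 against 24.1, 10.1 and 11.8. The endothelial sum was mostly Cdh5, and Kdr was at 18.1 to 21.5 FPKM in sham and lower in MI, at 17.7, 16.5 and 16.4. The platelet sum was mostly Pf4, and Gp9 and Ppbp in MI replicate 3 (0.24 and 0.86 FPKM) were not above sham. The smooth muscle sum was mostly Smtn, and Cnn1 went the other way, at 0.507 to 0.560 FPKM in sham and 6.67, 0.685 and 5.25 in MI. The T cell markers Cd3e, Cd3d and Cd3g stayed at a summed 0.019 to 0.202 FPKM in the sham mice and at 2.19, 0.352 and 1.46 in the MI mice, and the neutrophil markers at 0.3 to 1.27 against 13.1, 0.485 and 6.17. Red cell markers summed to 204 to 454 against 1290, 341 and 546. The part of these cell types in the results below was not tested, and in bulk tissue more cells of a type and more RNA per cell cannot be told apart.

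In the sham myocardium the 10 genes were at low to moderate levels. Tgfbr3 was the highest at 8.78 ± 0.652 FPKM (SD, n = 4), followed by Tgfbr2 at 6.04 ± 0.132, Tgfb3 at 5.72 ± 0.522, Tgfb1 at 4.79 ± 0.245, Tgfbi at 4.27 ± 0.344, Ltbp1 at 4.05 ± 0.348, Ltbp3 at 3.48 ± 0.111, Tgfbr1 at 2.37 ± 0.162, Tgfb2 at 0.836 ± 0.127 and Ltbp2 at 0.336 ± 0.0565. Between neighbours in this order the ranges of the 4 mice overlapped for Tgfbr2 and Tgfb3 and for Tgfbi and Ltbp1, and the other neighbours were apart. In the MI mice the order of the means began with Tgfb3 (39.8 ± 27.7, SD, n = 3) and ended with Ltbp1 (4.44 ± 0.237), and the ranges of every pair of neighbours overlapped.

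To compare MI with sham across the transcriptome, limma was fitted to log2(FPKM + 1) for the 11431 genes that reached 1 FPKM in 3 or more mice. Tgfb2 and Ltbp2 did not reach this level, since only MI replicates 1 and 3 were above 1 FPKM, and the 8 other genes were tested. None of the 8 passed an adjusted p of 0.05 in limma (Benjamini-Hochberg), whereas 5 of them had an unadjusted p under 0.05. Over all genes 3 passed the adjusted threshold (0.0262%) and 4496 had an unadjusted p under 0.05. By a second rule, an unadjusted p under 0.05 with a log2 fold change over 0.5, Tgfb3, Tgfbr1, Tgfbr2, Ltbp3 and Tgfbi were called higher in MI, which is 5 of 8 tested, against 17.8% of all tested genes. None was called lower, against 4.8%. The same 5 genes had every MI value above every sham value, against 16.1% of all tested genes, and Ltbp2, untested, was the sixth of the 10. No member had every MI value below sham, against 9.0%. The median log2 fold change was 1.16 over the 8 tested members and 0.21 over all tested genes.

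With MI replicate 2 left out, 6 of the 8 tested members passed an adjusted p of 0.05 in limma, all of them higher in MI, against 57.0% of all tested genes. Since more than 1 in every 2 genes was called higher in that fit, the count of members by itself says little about them, and the sizes of their differences are given below. All fold changes from limma are on the log2(FPKM + 1) scale, which understates the difference of genes at low FPKM.

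The ratio of the MI mean to the sham mean was 1.90 for Tgfb1, 5.32 for Tgfb2 and 6.97 for Tgfb3. Tgfb3, one of the ligands expressed in mesenchymal cells, was at 5.63, 5.38, 5.38 and 6.48 FPKM in the sham mice and at 58.4, 8.06 and 53.0 FPKM in MI replicates 1, 2 and 3. All MI mice were above all sham mice, MI replicate 2 by the least. The mean in MI was 6.97 times that in sham, with a log2 fold change of 2.20 (SE 0.62, adjusted p = 0.108 in limma), the 74th highest of the 11431 tested genes. Without MI replicate 2 it was 3.08 (SE 0.09, adjusted p = 1.08e-06 in limma). In the exact two-sided permutation test over the 35 splits of the 7 mice p was 0.0571, the smallest that 4 against 3 mice allow.

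Tgfb1, the ligand that platelets and macrophages store or secrete, was at 4.96, 4.60, 5.04 and 4.56 FPKM in sham and at 12.2, 4.10 and 11 FPKM in MI. MI replicate 2 lay below every sham mouse, so the groups overlapped. The log2 fold change was 0.69 (SE 0.31, adjusted p = 0.138 in limma; exact permutation p = 0.286). Without MI replicate 2 it was 1.12 (SE 0.07, adjusted p = 1.97e-05 in limma), and without MI replicate 1 it was 0.43 (adjusted p = 0.409 in limma). It was 0.45 with median log-ratio scaling and 0.42 with quantile normalization, so the size for Tgfb1 depends on the mouse left out and on the scaling.

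Tgfb2 was the lowest ligand, at 0.883, 0.705, 0.764 and 0.992 FPKM in sham and at 6.52, 0.933 and 5.89 FPKM in MI. MI replicate 2 fell inside the sham range while the other MI mice were above it. The estimated fragments behind these values were 139 to 180 in the sham mice, 192 in MI replicate 2, 1290 in MI replicate 1 and 1263 in MI replicate 3. The ratio of the means was 5.32 and the exact permutation p was 0.114. The means differed by 1.34 in log2(FPKM + 1), and by 1.97 without MI replicate 2.

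**Figure D1:**
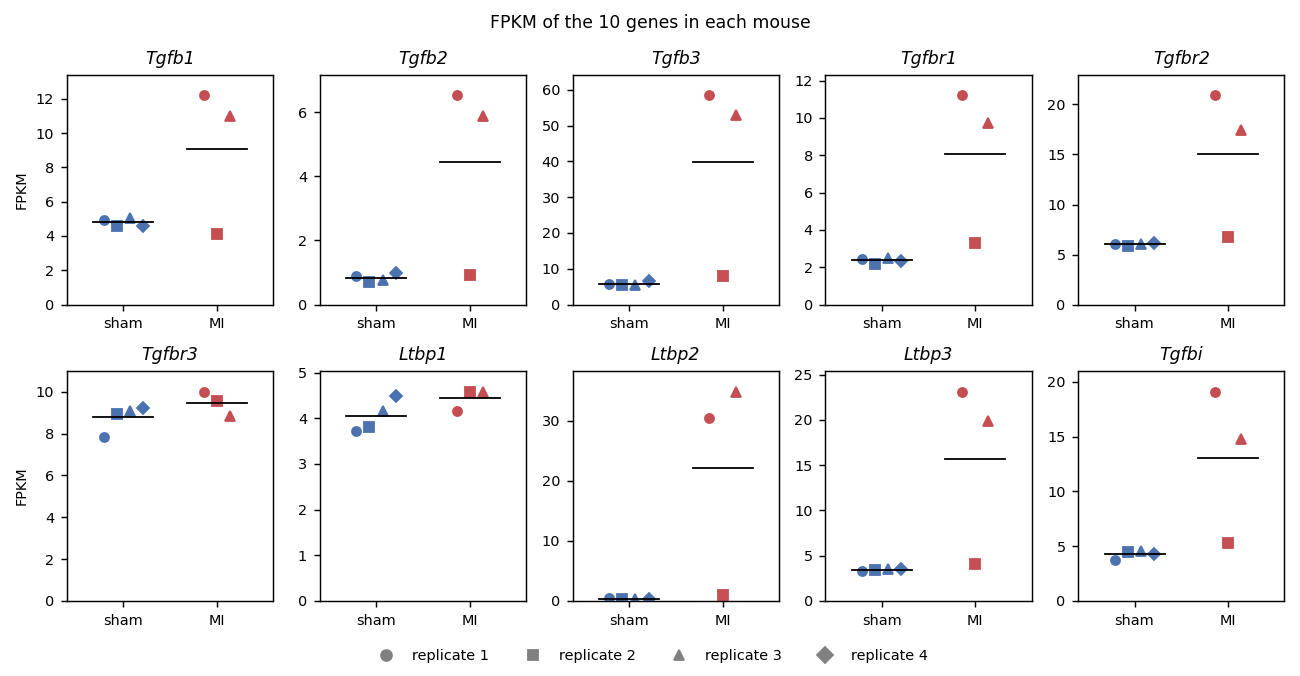
FPKM of the 10 TGF-beta genes in each mouse, 1 panel per gene with its own linear axis from 0; points are mice (shape gives the replicate number, sham blue and MI red) and lines are group means. MI replicates 1 and 3 lie far above sham for 8 genes, MI replicate 2 lies near sham, and Tgfbr3 and Ltbp1 overlap between the groups.

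The make-up of the ligand transcripts was then compared between groups. The summed FPKM of the 3 ligands was 11.5, 10.7, 11.2 and 12 in sham and 77.2, 13.1 and 69.8 in MI. Tgfb3 was 48.1% to 53.9% of this sum in the sham mice and 75.7%, 61.5% and 75.9% in the MI mice, and Tgfb1 was 37.9% to 45.1% in sham and 15.8%, 31.3% and 15.7% in MI. The share of Tgfb2 was 6.60% to 8.24% in sham and 8.45%, 7.13% and 8.43% in MI. MI replicate 2, although near sham in level, had a higher Tgfb3 share and a lower Tgfb1 share than every sham mouse.

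This was tested within each mouse as the difference between 2 genes in log2(FPKM + 1), over 9 pairs of related members. Tgfb3 exceeded Tgfb1 by 0.15, 0.19, 0.08 and 0.43 in sham and by 2.17, 0.83 and 2.17 in MI, so that the MI and sham groups differed by 1.51. Tgfb3 minus Tgfb2 was 0.86 larger in MI than in sham, and Tgfb1 minus Tgfb2 was lower by 0.66, at 1.66 ± 0.13 (SD, n = 4) in sham and 1.00 ± 0.34 (SD, n = 3) in MI. None of these 3 pairs overlapped between groups (exact permutation p = 0.0571 each, adjusted over the 9 pairs 0.0735), which is the smallest p the design allows. Over all pairs of tested genes 27.8% did not overlap, in either direction, a share that does not cover the pairs with Tgfb2. With a pseudocount of 0.1 in place of 1 the differences were 1.58 for Tgfb3 minus Tgfb1, 0.45 for Tgfb3 minus Tgfb2 and -1.13 for Tgfb1 minus Tgfb2, so the sizes for pairs with the low Tgfb2 depend on it. They were 1.96, 1.11 and -0.85 when MI replicate 2 was left out.

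**Figure D2:**
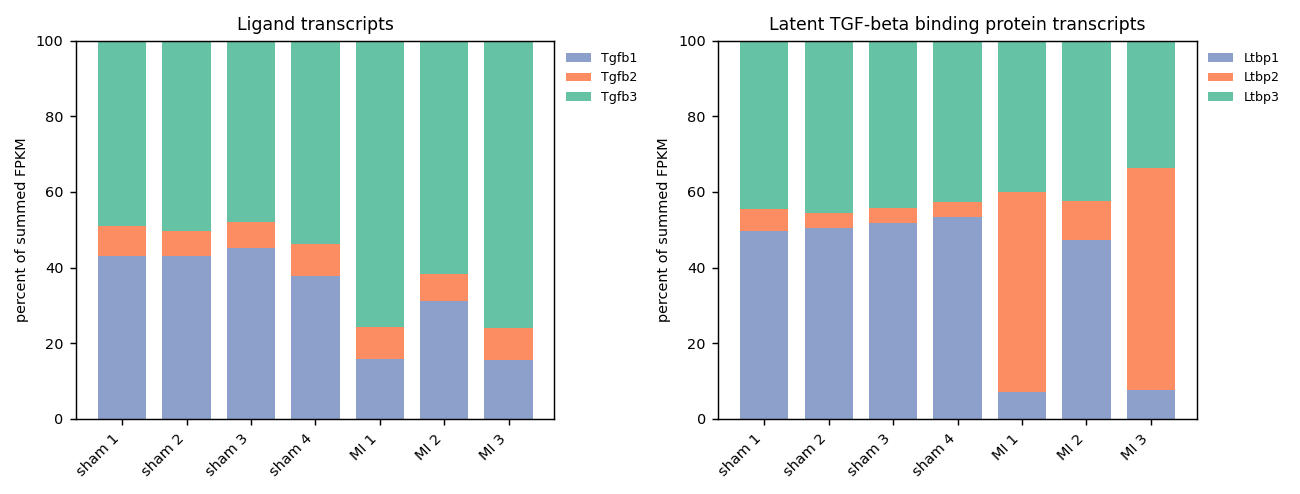
Share of each transcript in the summed FPKM of 3 genes, in percent, 1 stacked bar per mouse. The ligands are on the left and Ltbp1, Ltbp2 and Ltbp3 on the right, with Ltbp4 left out. Tgfb3 takes 75.7% and 75.9% of the ligand sum in MI replicates 1 and 3, and Ltbp2 takes 52.8% and 58.7% of the binder sum there but 3.78% to 5.60% in sham.

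The type I and type II receptors had every MI value above sham, and the values of the co-receptor overlapped. Tgfbr1, the signalling kinase, was at 2.46, 2.16, 2.52 and 2.34 FPKM in sham and at 11.2, 3.28 and 9.72 FPKM in MI. Tgfbr2, which binds the ligand first, was at 6.06, 5.85, 6.08 and 6.16 FPKM in sham and at 20.9, 6.72 and 17.4 FPKM in MI. In both genes the lowest MI mouse, replicate 2, was above the highest sham mouse. The log2 fold change was 1.29 (SE 0.34, adjusted p = 0.108 in limma) for Tgfbr1 and 1.05 (SE 0.33, adjusted p = 0.108 in limma) for Tgfbr2. Without MI replicate 2 it was 1.76 (SE 0.08, adjusted p = 6.02e-06 in limma) and 1.51 (SE 0.08, adjusted p = 1.01e-05 in limma).

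Tgfbr3, or betaglycan, a co-receptor that presents ligand to Tgfbr2, was at 7.82, 8.96, 9.09 and 9.25 FPKM in sham and at 10, 9.54 and 8.86 FPKM in MI. The groups overlapped. The log2 fold change was 0.10 (SE 0.10, adjusted p = 0.421 in limma), and it was negative when mice were scaled by their median log-ratio (-0.13) or by quantiles (-0.15). Rescaled to TPM it was 0.30 (adjusted p = 0.145 in limma), and every MI mouse was then above every sham mouse, so the direction and the overlap of Tgfbr3 depend on the scaling.

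Tgfbr1 was next set against Tgfbr2 within each mouse. The ratio of Tgfbr2 to Tgfbr1 was 2.46, 2.71, 2.41 and 2.63 in the sham mice and 1.86, 2.05 and 1.79 in the MI mice. Here MI replicate 2 lay with the other MI mice and not with sham. On the log2 scale Tgfbr1 minus Tgfbr2 was -1.06 ± 0.05 (SD, n = 4) in sham and -0.82 ± 0.04 (SD, n = 3) in MI (difference 0.24, or 0.40 with a pseudocount of 0.1, exact permutation p = 0.0571, adjusted over the 9 pairs 0.0735), which does not pass 0.05, and 27.8% of all pairs of tested genes do not overlap. Tgfbr1 minus Tgfbr3 was 1.19 larger in MI with no overlap, whereas for Tgfbr2 minus Tgfbr3 the groups overlapped (difference 0.95, exact permutation p = 0.114, adjusted 0.129). Leaving out MI replicate 2, the differences of these 3 receptor pairs were 0.25, 1.67 and 1.41.

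**Figure D3:**
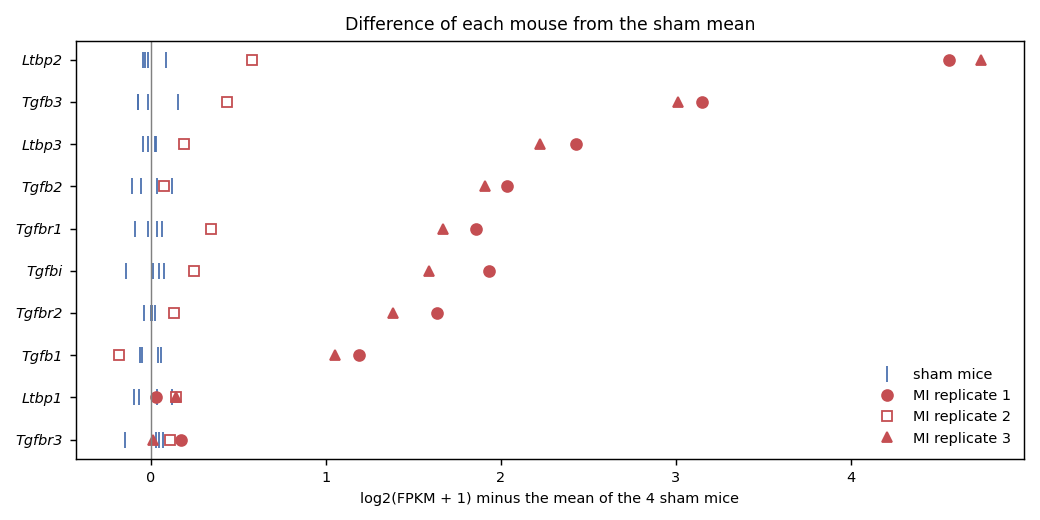
Log2(FPKM + 1) of each gene in each MI mouse minus the sham mean, with the 4 sham mice as ticks for spread. For 8 genes MI replicates 1 and 3 lie far to the right, and MI replicate 2 lies much nearer 0, at 0.43 for Tgfb3 and -0.18 for Tgfb1.

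Among the latent TGF-beta binding proteins the ratio of the MI mean to the sham mean ran from 1.1 for Ltbp1 to 65.7 for Ltbp2. Ltbp2, an elastic fibre associated member that does not covalently bind latent TGF-beta, was at 0.419, 0.298, 0.304 and 0.324 FPKM in sham and at 30.5, 0.996 and 34.8 FPKM in MI. It was the lowest of the 10 genes in sham and the second highest mean in MI. The mean of MI replicates 1 and 3 was 97.1 times the sham mean, and MI replicate 2 was 2.96 times the sham mean and above every sham mouse. The estimated fragments were 128, 88, 97 and 88 in sham and 9045, 307 and 11174 in MI, so the sham values would rest on few fragments. These counts come from the steps between FPKM values and imply a gene length of 13615 bases for Ltbp2 and 9087 for Tgfb2, against annotated exon lengths of 8184 and 5791, so they are estimates. The exact permutation p was 0.0571. The means differed by 3.29 in log2(FPKM + 1), and by 4.65 without MI replicate 2.

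Ltbp3, a binder of latent TGF-beta, was at 3.34, 3.43, 3.56 and 3.57 FPKM in sham and at 23.1, 4.11 and 19.9 FPKM in MI. All MI mice were above sham, with a log2 fold change of 1.61 (SE 0.50, adjusted p = 0.108 in limma) and of 2.32 (SE 0.07, adjusted p = 1.57e-06 in limma) without MI replicate 2. Ltbp1, also a binder of latent TGF-beta, was at 3.73, 3.82, 4.17 and 4.49 FPKM in sham and at 4.16, 4.58 and 4.57 FPKM in MI. Its groups overlapped, with a log2 fold change of 0.11 (SE 0.09, adjusted p = 0.375 in limma) that was -0.10 with median log-ratio scaling and -0.17 with quantile normalization. With TPM it was 0.30 (adjusted p = 0.138 in limma) and the groups of Ltbp1 no longer overlapped.

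Ltbp1 therefore made up 49.8% to 53.5% of the summed FPKM of the 3 binders in the sham mice and 7.21%, 47.3% and 7.72% in the MI mice, while Ltbp2 was 3.78% to 5.60% in sham and 52.8%, 10.3% and 58.7% in MI. Ltbp2 minus Ltbp1 in log2(FPKM + 1) was -1.92 ± 0.14 (SD, n = 4) in sham and 1.27 ± 2.38 (SD, n = 3) in MI. The difference of 3.19 had an exact permutation p of 0.0571, adjusted over the 9 pairs 0.0735. Ltbp2 minus Ltbp3 was 1.68 larger in MI, also without overlap, and 2.80 larger with a pseudocount of 0.1. For Ltbp3 minus Ltbp1 MI replicate 2 lay inside the sham range (difference 1.5, exact permutation p = 0.171, adjusted 0.171). Without MI replicate 2 the differences were 4.56 for Ltbp2 minus Ltbp1, 2.33 for Ltbp2 minus Ltbp3 and 2.23 for Ltbp3 minus Ltbp1. Of the 5 pairs in which both genes were tested, 3 had groups that did not overlap, against 27.8% of all pairs of tested genes. Within each family the third pair follows from the other two.

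Tgfbi, which encodes a secreted matrix protein that binds collagens and integrins, was at 3.77, 4.44, 4.55 and 4.30 FPKM in sham and at 19.1, 5.25 and 14.8 FPKM in MI. Every MI mouse was above every sham mouse. The log2 fold change was 1.26 (SE 0.37, adjusted p = 0.108 in limma), and 1.76 (SE 0.11, adjusted p = 1.97e-05 in limma) without MI replicate 2.

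The upstream 250 bases of the promoters of Tgfb1, Tgfb2, Ltbp1, Ltbp2 and Ltbp3 are shown because the MI values of these ligands and binders are set against each other above. The sequences are from RefSeq (GRCm38.p6), where 8 of the 10 members were matched, and the first of 2 is given for Ltbp1. Capitals mark, on either strand, CAGAC (the SMAD core), GGGCGG (the GC box), TATAAA (the TATA box) and TGANTCA (AP-1). No marked motif overlaps another in these sequences. Tgfb1 lies upstream of the gene at chr7:25686752-25687001, plus strand. Tgfb2 is at chr1:186705990-186706239, minus strand. Ltbp1 is at chr17:75005279-75005528, plus strand, upstream of a RefSeq start that lies before the GENCODE start and whose first bases were found in no GENCODE transcript of the gene. Ltbp2 is at chr12:84876533-84876741, minus strand, with the bases past the annotated start removed. Ltbp3 is at chr19:5740650-5740899, plus strand.
Tgfb1: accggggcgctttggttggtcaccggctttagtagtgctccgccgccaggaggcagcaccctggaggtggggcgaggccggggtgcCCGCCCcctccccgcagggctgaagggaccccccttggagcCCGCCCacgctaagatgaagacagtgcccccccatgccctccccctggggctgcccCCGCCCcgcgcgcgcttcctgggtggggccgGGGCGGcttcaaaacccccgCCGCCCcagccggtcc
Tgfb2: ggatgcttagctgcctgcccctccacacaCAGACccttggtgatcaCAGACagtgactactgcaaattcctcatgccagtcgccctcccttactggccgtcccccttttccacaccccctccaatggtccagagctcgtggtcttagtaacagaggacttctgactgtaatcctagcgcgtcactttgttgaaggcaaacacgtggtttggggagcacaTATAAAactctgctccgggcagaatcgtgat
Ltbp1: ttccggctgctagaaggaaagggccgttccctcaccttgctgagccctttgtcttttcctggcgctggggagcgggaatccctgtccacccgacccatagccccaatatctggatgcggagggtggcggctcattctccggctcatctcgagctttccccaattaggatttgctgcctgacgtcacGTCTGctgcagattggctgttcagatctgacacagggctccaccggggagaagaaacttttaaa
Ltbp2: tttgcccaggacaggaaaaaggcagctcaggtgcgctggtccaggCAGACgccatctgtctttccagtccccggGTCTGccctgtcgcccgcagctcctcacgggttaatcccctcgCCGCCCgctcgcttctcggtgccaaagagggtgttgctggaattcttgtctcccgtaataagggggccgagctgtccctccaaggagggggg
Ltbp3: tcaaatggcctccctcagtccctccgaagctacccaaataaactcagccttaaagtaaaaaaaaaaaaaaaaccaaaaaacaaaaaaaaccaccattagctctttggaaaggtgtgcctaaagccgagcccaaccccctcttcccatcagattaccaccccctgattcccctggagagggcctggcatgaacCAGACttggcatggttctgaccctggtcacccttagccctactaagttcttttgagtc
The SMAD core CAGAC was found in 42.2% of all 32851 RefSeq promoters of this length and in 8 of the 10 promoters of the 8 matched members, Tgfbr1 and Ltbp1 having 2 each. The GC box GGGCGG was found in 32.7% of all promoters and in 4 of these 10. The TATA box was found in 12.4% of all promoters and in 1 of these 10, that of Tgfb2. The AP-1 motif was found in 6.75% of all promoters and in 0 of these 10. The box CCAAT, left unmarked, was found in 33.8% of all promoters and in 4 of these 10. Tgfb1 held 5 GC boxes in a promoter of 75.2% G and C, against a median of 52.4% over all promoters. A match or its absence describes these letters in this window and nothing more.

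On GRCm38 (GENCODE M21) the ligands lie at chr7:25687002-25705077 (Tgfb1), chr1:186622792-186705989 (Tgfb2) and chr12:86056745-86079041 (Tgfb3). The receptors lie at chr4:47353222-47414931 (Tgfbr1), chr9:116084293-116175360 (Tgfbr2) and chr5:107106570-107289629 (Tgfbr3). The binders lie at chr17:75005568-75392512 (Ltbp1), chr12:84783212-84876532 (Ltbp2) and chr19:5740904-5758532 (Ltbp3), and Tgfbi lies at chr13:56609523-56639562. The genes annotated on the same build bear on how reads were assigned, since the strand setting is not given in the sources used here. Exon bases are shared with an antisense or overlapping gene for Tgfb2 (124 bases, Gm29491), Tgfb3 (420 bases, Gm37804 and Gm48008) and Ltbp2 (764 bases, D030025P21Rik), and Tgfbr3 shares 297 bases with Gm43422 on its own strand, so part of their fragments may belong to these genes. Tgfb1, Tgfbr1, Tgfbr2, Ltbp1 and Tgfbi share none.

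Other genes of the pathway were read from 4 lists. In the list on the latent complex and its activation 10 of 12 genes were tested, 7 were called higher by the second rule and 1 lower, against 17.8% and 4.8% of all tested genes, with a median log2 fold change of 0.74. Every MI value was above every sham value for 2 of the 10, against 16.1% of all tested genes. The genes with the largest differences were Thbs1 (2.72), Fbn1 (1.8), Emilin1 (1.52) and Itgb5 (1.43). Thbs1 encodes an activator of latent TGF-beta, and Fbn1 the fibrillin to which LTBPs attach. MI replicate 2 lay within the sham range for Thbs1 (1.65 against 1.5 to 2.62 FPKM) and Fbn1 (6.03 against 5.9 to 8.39). It lay below sham for Emilin1 (4.09 against 4.31 to 4.60) and above it for Itgb5 (20.2 against 16.8 to 18.2). The gene called lower was Itgb6, an activating integrin subunit, at 3.59, 3.64, 2.81 and 2.97 FPKM in sham and 0.846, 1.73 and 0.780 FPKM in MI. It was singled out after its values were seen (log2 fold change -1.03, SE 0.17, adjusted p = 0.108 in limma).

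Of the co-receptors, decoys and matrix binders, 8 of 9 were tested and 7 were called higher (17.8% of all tested genes), with a median of 1.27. The small leucine-rich proteoglycans led, with Fmod at 3.04, Bgn and Aspn at 2.50 each and Dcn at 1.5. In the list of intracellular signal and inhibitor genes 3 of 12 tested were called higher, near the 17.8% of all tested genes, and none lower, and the median of 0.39 was the nearest to that of all tested genes, 0.21. Pmepa1, a TGF-beta-induced inhibitor, was the exception at 4.83, 4.77, 4.85 and 4.89 FPKM in sham and 32.8, 4.98 and 33.2 FPKM in MI (log2 fold change 1.71), followed by Fkbp1a (0.60, p not under 0.05), Ski (0.56) and Smurf2 (0.54). Of the genes known to be induced by TGF-beta, 10 of 12 tested were called higher (17.8% of all tested genes), with a median of 3.22. Postn (4.10), Timp1 (3.75), Lox (3.72) and Col1a1 (3.69) differed most. Fmod, Lox and Timp1 reached 1 FPKM in fewer than 3 sham mice and so entered the test through MI; leaving them out, 6 of 7 co-receptor and binder genes (median 1.03) and 8 of 10 induced genes (median 3.05) were called higher. Dcn and Col1a1 are also on the fibroblast marker list, whose sum moved with the same mice. Every MI value was above every sham value for 5 of 8 co-receptor and binder genes and 2 of 12 intracellular genes. The same held for 10 of 12 induced genes, Lox and Timp1 among them, against 16.1% of all tested genes. No gene of the 4 lists passed an adjusted p of 0.05 in limma with all mice. Without MI replicate 2 the list medians were 1.13, 1.79, 0.64 and 4.48, in the order above, and the median of all tested genes was 0.33. Scaled by the median log-ratio, which took the median of all genes from 0.21 to 0.02, the list medians were 0.51, 1.02, 0.17 and 2.97, and 4, 5, 1 and 10 genes were called higher, against 9.75% of all tested genes under that scaling.

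**Figure D4:**
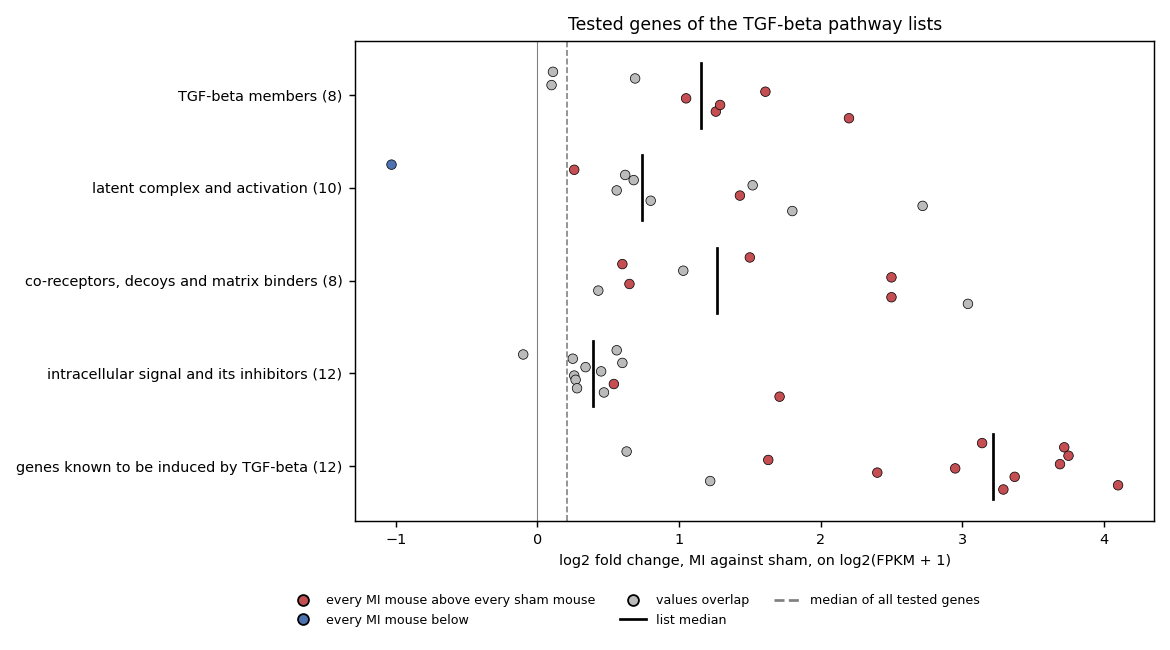
Log2 fold change (MI against sham, log2(FPKM + 1)) of the tested members and of the tested genes of 4 pathway lists, 1 point per gene, with the list median as a black line and the median of all tested genes (0.21) dashed. The genes known to be induced by TGF-beta lie furthest to the right (median 3.22) and the intracellular signal genes lie nearest the dashed line (median 0.39).

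The genes most like the ligands across the 7 mice were found by Pearson's r of log2(FPKM + 1). For Tgfb3 they were Colec12 (0.9998), Timp2 (0.9996) and Tagln (0.9995), for Tgfb2 Eif3l (0.9999), Tmem63a (0.9997) and Ogn (0.9997), for Tgfb1 Gm10243 (0.9993), Erp44 (0.999) and Mapk8ip1 (0.9988), and for Tgfbi Dxo (0.9995), Meaf6 (0.9995) and Cep250 (0.9988). The number of genes with r above 0.99 was 364 for Tgfb1, 721 for Tgfb2, 608 for Tgfb3 and 452 for Tgfbi. MI replicates 1 and 3 lay far from the other 5 mice in each of these genes, so the coefficients describe that contrast and are given with no test.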

How the data were processed

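Myocardial tissue RNA of 7 mice (4 sham, 3 MI, 1 library each, grouped by the treatment label) was sequenced by the study. The deposited table holds FPKM per Ensembl gene, made by the authors; the processing notes name CASAVA 1.8, HISAT2, SAMtools 1.3.1, edgeR and mm10 with no role given, and the counting program, annotation release and strand setting are not given in the sources used here. FPKM values were used as deposited, with symbols for 91.4% of genes. Whole fragments could be recovered from the FPKM steps (30486 of 30504 genes above 0, within 0.02 of a whole number, or up to 0.1 at high counts) and served to estimate the depth of libraries and of single genes; the implied gene length and depth matched GENCODE M21 exon lengths for 3624 of 17112 genes compared, so these are estimates.

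limma 3.58.1 (R 4.3.3, trend) was fitted to log2(FPKM + 1) for genes reaching 1 FPKM in 3 or more mice, with Benjamini-Hochberg adjustment. Single members and pairs were tested by exact two-sided permutation over the mice. Whether samples are technical or biological repeats beyond being separate mice is not labelled, so p-values measure the spread between these samples. The fit was tested on simulated data. Named genes were all 10 members, the 4 largest differences in each pathway list and the 3 most alike genes of 4 members, with Itgb6 added after its values were seen; members and lists were chosen with earlier results of these data known. There were 16 alternatives. The overlap of Ltbp3 with other annotated genes is not reported here.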

Additional observations from a re-analysis of the deposited data

Results flagged for a closer look

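Across 32 sets of 4 sham values, 1 had a mouse far from the other 3, and about 1.6 such sets would be flagged by chance. Tgfbr2 minus Tgfbr3 in log2(FPKM + 1) was -0.32 in sham replicate 1 and -0.54, -0.51 and -0.52 in the other sham mice, a gap of 0.868 of the range. Sham replicate 1 had the lowest Tgfbr3, at 7.82 FPKM.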

How the results depend on the processing

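Over all tested genes, 2 were higher and 1 lower in MI at an adjusted p under 0.05 in limma. The higher count was 5 with a pseudocount of 0.1, 20 with no filter, 0 with the filter on the mean FPKM (4740 genes at an unadjusted p under 0.05), 10 under either median log-ratio or quantile scaling, and 7636 with sample weights, which gave MI replicate 3 a weight of 436.747 in an estimate that did not converge, so the counts with sample weights support nothing. The lower count was 0 with the mean filter, 0 with TPM (4702 genes at an unadjusted p under 0.05), 5 under either of those scalings and 2316 with sample weights. With the replicate block 0 genes were higher and 0 lower (2332 at an unadjusted p under 0.05). Same-numbered mice deviated together by r = 0.07, -0.02 and -0.08. MI replicate 2 stood apart from the other MI mice, so these values cannot decide whether the numbers pair the mice. Leaving out 1 mouse gave 0 to 6512 higher and 0 to 1683 lower, the largest without MI replicate 2.

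At an unadjusted p under 0.05 and a log2 fold change beyond 0.5, 2040 genes were higher and 549 lower. The counts were 3741 and 296 with TPM, 1114 and 1112 after median log-ratio scaling, 1007 and 1143 after quantile normalization, and 3730 and 910 with sample weights; leaving out 1 mouse gave 637 to 4006 and 177 to 962. Median log-ratio scaling brought the median log2 fold change of all genes from 0.21 to 0.02, and TPM raised it to 0.42. The cause of these shifts was not tested.

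Members at an adjusted p under 0.05 numbered 0 (5 at an unadjusted p), 7 with sample weights and 0 to 6 when 1 mouse was left out, 6 without MI replicate 2. Members called higher numbered 5, and 3 to 6 when 1 mouse was left out. There were 3 without MI replicate 3 (640 of 11431 genes called higher) and 6 without MI replicate 2 (4006 genes). With no filter 7 were called higher (2846 of 30504 genes), as with the filter on the mean FPKM (2337 of 11804 genes). Both settings also tested Tgfb2 and Ltbp2, which were above 1 FPKM only in MI replicates 1 and 3. With sample weights 6 were called higher. Of 132 member values under the alternatives, 115 kept their direction and side of the threshold, 13 passed it (7 with sample weights and 6 without MI replicate 2), and 4 reversed: Tgfbr3 at -0.13 and Ltbp1 at -0.10 with median log-ratio scaling, and Tgfbr3 at -0.15 and Ltbp1 at -0.17 with quantile normalization. Members with every MI value above sham numbered 5, and 7 with TPM. The share of all tested genes was 16.1% for the main scaling and was not computed with TPM. Since TPM raised the median log2 fold change of all genes to 0.42, the 7 cannot be read by itself. The replicate block changed no member's call.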
